A study of Saccharomyces cerevisiae with 14 samples.

Results

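Budding yeast (Saccharomyces cerevisiae) was fed 4-thiouracil (4tU), an analogue of uracil that enters new RNA and lets it be captured through a thiol group. RNA captured after 5 min of labelling was set against total RNA, the standing pool of old and new transcripts, to describe which RNAs still differed from that pool. The comparison takes 6 of the 14 libraries of the series. They are 3 libraries of 5 min labelled RNA and 3 of total RNA depleted of rRNA, 1 of each from timecourses 1, 2 and 3. The 14 libraries also include 3 each at 1.5 and 2.5 min of labelling and 2 taken through capture with no label, whose levels are given beside those of the 6 where they help. Every library came from strain W303U, a MATa haploid that carries can1-100, leu2-3, 112, trp 1-1, ade2-1 and his3-11, 15. Cultures of 600 ml grew in synthetic medium lacking uracil and leucine at 30 °C to an OD600 of 0.8. They received 500 µM 4tU and were frozen in methanol at -70 °C, per the labels.

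RNAs differ in how fast they are made and how long they last. A short label marks RNA made during the pulse, so long-lived RNAs such as snoRNAs, snRNAs and abundant housekeeping mRNAs are known for taking a small share of it, and short-lived RNAs a large one. CUTs (cryptic unstable transcripts) are degraded by the nuclear exosome, SUTs (stable unannotated transcripts) less so, and XUTs are seen when the cytoplasmic exonuclease Xrn1 is missing. Precursors with introns exist only until splicing. The counts are relative: a lower share of the library and less of an RNA per cell cannot be told apart.

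The 5 min libraries held 7206103, 20528678 and 20371687 counts in timecourses 1, 2 and 3, and the total RNA libraries 3618310, 65173280 and 21361270. The total RNA library of timecourse 3 stood apart, with 12.9% of protein-coding features at 0, against 9.52% and 1.26% in those of timecourses 1 and 2. TMM, the scaling used here, gave factors of 1.22 to 1.37 at 5 min and 0.268 to 0.492 in total RNA. Levels are TMM-scaled CPM, and a fold change is 5 min over total RNA relative to the bulk of features, whose median was 0.13 on the log2 scale. Scaled by library size alone that median was 1.86. The MATa label was checked on mating genes. STE2, the α-factor receptor of a cells, averaged 208 CPM at 5 min and 487 in total RNA, while MF(ALPHA)1, the α-factor gene of the opposite mating type, averaged 0.139 and 0.0312 CPM, and STE3, its receptor for a-factor, 9.3 and 2.71.

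The tRNA genes that were higher at 5 min all hold an intron, so 4 of them are shown with the intron in capitals (R64 reference, RefSeq). They lie at chrIV:1461715-1461829 on the minus strand, chrXII:628383-628497 on the plus strand, chrXII:92548-92650 on the plus strand and chrXIII:379303-379408 on the minus strand.
tL(CAA)D: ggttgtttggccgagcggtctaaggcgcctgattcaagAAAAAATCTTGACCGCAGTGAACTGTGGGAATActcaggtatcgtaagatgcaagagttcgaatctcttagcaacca
tL(CAA)L: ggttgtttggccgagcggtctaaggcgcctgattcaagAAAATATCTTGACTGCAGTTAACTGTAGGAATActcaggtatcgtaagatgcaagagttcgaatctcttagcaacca
tP(UGG)L: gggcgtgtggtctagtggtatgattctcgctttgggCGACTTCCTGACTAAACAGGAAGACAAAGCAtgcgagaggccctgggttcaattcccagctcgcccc
tW(CCA)M: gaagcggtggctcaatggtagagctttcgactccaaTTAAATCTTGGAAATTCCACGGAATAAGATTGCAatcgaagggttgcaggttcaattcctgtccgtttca
The 2 leucine tRNA genes are identical over their 82 exon bases and differ at 4 of the 33 intron bases, so reads from their exons could have come from either.

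Of 12449 deposited features, 11513 passed the filter on low counts. edgeR's quasi-likelihood test with Benjamini-Hochberg adjustment called 1350 of them at an adjusted p under 0.05, which is 11.7%. Of these, 375 were higher at 5 min (3.26% of features tested) and 975 were lower (8.47%). The classes divided unevenly. snoRNAs and snRNAs were lower, with none of either higher, protein-coding genes were mostly lower where they were called, and CUTs and SUTs were more often higher than lower. The 3 timecourses pair the libraries, and with timecourse as a block the same test called 634 features higher (5.51%) and 1388 lower (12.1%).

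**Figure D1:**
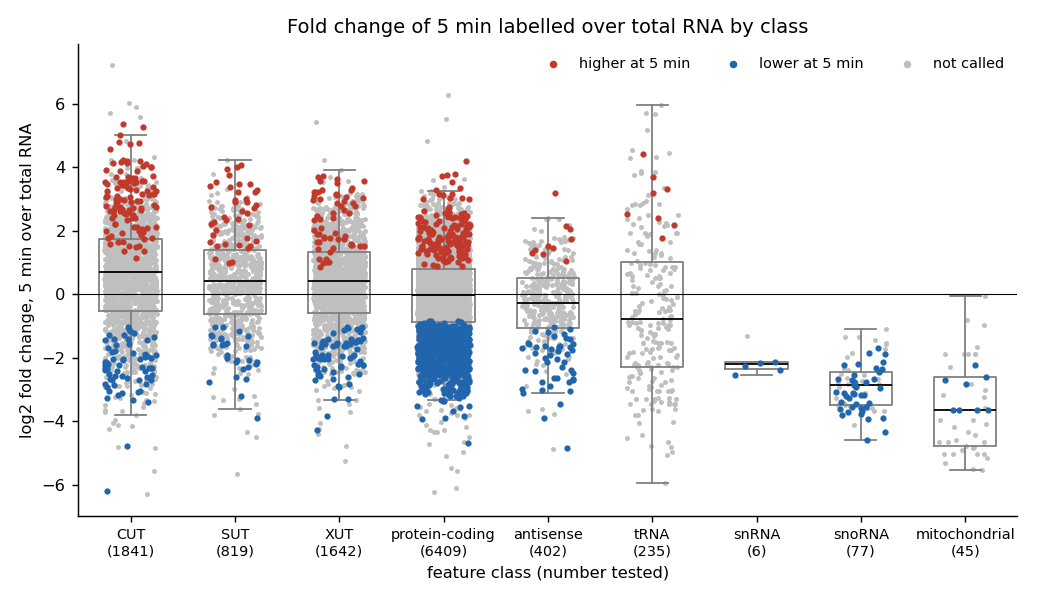
Log2 fold change of 5 min labelled over total RNA for every feature tested, by class, with boxes at the quartiles and median and whiskers to the farthest value within 1.5 box lengths. Coloured points passed the test. snoRNAs lay around a median of −2.85 and CUTs around 0.72.

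Shares of all counts outside rRNA add up the members of a class by their counts, and are not the same measure as the calls. Protein-coding features took 59.7%, 58.8% and 58.0% at 5 min, against 51.7%, 53.4% and 36.9% in total RNA of timecourses 1, 2 and 3. CUTs, SUTs and XUTs together took 12.1% ± 0.678 at 5 min and 6.68% ± 1.07 in total RNA (SD of 3 libraries each). In both classes all 3 libraries of 5 min lay above all 3 of total RNA. snoRNAs took 14.2% ± 0.557 at 5 min and 24.7% ± 7.26 in total RNA (SD of 3 libraries each), again without overlap. The exact two-sided permutation test gave p = 0.1 for each of these 3 classes, the smallest p that 3 against 3 libraries allow, and 0.267 adjusted over the 8 classes compared. Antisense units took 5.14% ± 0.348 at 5 min and 5.24% ± 2.39 in total RNA, with overlap (exact p = 1). The snRNA share was 2.93% ± 0.431 at 5 min and 4.41% ± 1.88 in total RNA (exact p = 0.4), and the groups overlapped.

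snoRNAs guide the modification and cleavage of pre-rRNA in the nucleolus, and are packed into stable protein particles. All 77 snoRNA features, among which the deposited table counts NME1, were tested, 43 were lower and 0 were higher. The share lower was 55.8%, against 8.47% of all features, and the median log2 fold change was −2.85. snR37, a box H/ACA snoRNA (chromosome X, 228094 to 228479), had 1121, 976 and 1352 CPM at 5 min, against 15307, 14595 and 52557 CPM in total RNA. The groups were far apart in every timecourse, and the label-free libraries, with 16010.0 and 5089.8 CPM, lay above those of 5 min. On the log2 scale the change of snR37 was −4.58 ± 0.62 (SE, edgeR adjusted p = 0.00148). snR30, the H/ACA RNA needed for early cleavage of pre-rRNA (chromosome XII, 198784 to 199389), had 8741, 6259 and 4469 CPM at 5 min, against 47416, 25738 and 50734 in total RNA. It fell by 2.67 ± 0.51 on the log2 scale (SE, adjusted p = 0.00672), with no overlap between groups. The U3 snoRNA, which folds the small-subunit precursor, has 2 genes. snR17a averaged 21570.0 ± 5541 CPM (SD) in the 3 libraries of 5 min and 109248 ± 40669 CPM in those of total RNA, a log2 change of −2.34 (adjusted p = 0.0184), and snR17b had −2.71 (adjusted p = 0.0165). These 2 copies share sequence, so the division of reads between them is uncertain.

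snR53, shown here because it fell most among the box C/D snoRNAs that passed, is a short RNA of 91 bases (chrV:61699-61789, plus strand). Capitals mark the first occurrence of TGATGA, the letters of the C box, and CTGA, those of the D box. These boxes bind the core proteins of the particles. TGATGA occurs again, starting inside the marked stretch and running past it, and which copy is the box was not tested.
snR53: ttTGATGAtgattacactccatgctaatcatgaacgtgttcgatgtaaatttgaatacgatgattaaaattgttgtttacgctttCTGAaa
On the RNA strand the C box letters TGATGA occur in 38 of 45 box C/D snoRNAs (84.4%) and in 3 of 29 box H/ACA snoRNAs (10.3%). The D box letters CTGA stand in the last 12 bases of 42 of the 45 and of 1 of the 29. snR53 had 0.793, 0.605 and 2.48 CPM at 5 min, against 4.53, 21.6 and 52.7 in total RNA, so both groups were low and spread widely. Its log2 fold change of −4.34 ± 1.01 (SE, adjusted p = 0.0179) did not pass without the 5 min library of timecourse 1 or 2 (adjusted p = 0.087 and 0.0765).

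The box class given by RefSeq was not used by the test. Of 45 box C/D snoRNAs 16 were lower, with a median log2 fold change of −2.93 and a range of −4.34 to −1.09. Of 29 box H/ACA snoRNAs 25 were lower, with a median of −2.77 and a range of −4.58 to −1.84. The medians were thus close while the share that passed differed; this difference in shares was not tested. Box C/D members were shorter, at a median of 97 bases against 204. Across the 77 snoRNAs, log2 fold change and log2 length had Pearson's r = 0.08 and Spearman's rho = 0.17. With the number of uridines the values were 0.06 and 0.11. The points share the same 6 libraries.

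The snoRNA count moved with the scaling and with single libraries. By library size alone 17 were lower and 0 higher, with a median of −1.04. Leaving out 1 library of 5 min at a time left 24, 25 and 29 lower, and leaving out 1 of total RNA left 49, 45 and 42, where leaving out that of timecourse 3 gave the 42. 23 snoRNAs were lower in every one of these 6 fits. With timecourse as a block 69 were lower and with only the 6 libraries in the fit 11 were. snR17a was lost without any of the 5 min libraries (adjusted p = 0.0924, 0.0549 and 0.0845 without timecourse 1, 2 and 3). snR17b was lost without that of timecourse 1 or 3 (0.0772 and 0.0733).

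The spliceosomal snRNAs, the RNA parts of the machine that removes introns, were lower in 5 of 6 features. That is 83.3%, against 8.47% of all features, and the median log2 fold change was −2.21. LSR1, the U2 snRNA (chromosome II, 680688 to 681862), had 16270.0, 14069 and 9850.0 CPM at 5 min, against 80557, 28488 and 123071 in total RNA. It fell by 2.53 ± 0.61 (log2, SE, adjusted p = 0.0211), with no overlap. snR19, the U1 snRNA, averaged 5374 CPM at 5 min and 24136 in total RNA, a log2 change of −2.17 (adjusted p = 0.014). snR7-S and snR7-L, the short and long forms of U5, had −2.25 and −2.13 (adjusted p = 0.0127 and 0.0229); the forms overlap, and their levels cannot be separated. snR6, the U6 snRNA, was the member that did not pass. It had 187, 418 and 472 CPM at 5 min, against 201, 767 and 1708 in total RNA, so the groups overlapped (log2 fold change −1.31 ± 0.73, adjusted p = 0.245). U6 is the only member made by RNA polymerase III.

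snR14, the U4 snRNA, is shown because it pairs with U6 before the spliceosome is activated (chrV:167427-167586, minus strand). The capitals mark ATTTTTG, the form of the Sm protein binding site in this RNA.
snR14: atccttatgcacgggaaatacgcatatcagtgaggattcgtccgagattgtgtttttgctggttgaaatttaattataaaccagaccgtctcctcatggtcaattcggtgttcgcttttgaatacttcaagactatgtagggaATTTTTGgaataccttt
These letters occur once in snR14 and LSR1 and 3 times in snR19, and not in the other 3 features; only the RNA strand was searched. snR14 had 183, 99.9 and 163 CPM at 5 min, against 521, 464 and 1334 in total RNA, and 447 and 196 without label. Every 5 min library lay below every total RNA library (log2 fold change −2.38 ± 0.50, adjusted p = 0.0105). Each snRNA call rested on single libraries of 5 min. LSR1 was lost without timecourse 1, 2 or 3 (adjusted p = 0.08, 0.0756 and 0.094), as was snR7-L (0.1, 0.0948 and 0.0551). snR14 was lost without timecourse 2 (0.0551), snR19 without 2 or 3 (0.0591 and 0.071) and snR7-S without 1 or 2 (0.0603 and 0.0623). No snRNA passed with only the 6 libraries in the fit or by library size alone (median −0.32), and 5 passed with timecourse as a block.

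Of 4 long-lived RNAs of other particles, TLC1 and SCR1 were lower, and RPR1 and NME1 did not pass. TLC1, the template RNA of telomerase (chromosome II, 307587 to 308887), had 166, 119.8 and 79.9 CPM at 5 min, against 1174, 929 and 779.6 in total RNA. The gap was wide in each timecourse and held in all 6 fits that left out 1 library (log2 fold change −2.98 ± 0.42, SE, adjusted p = 0.00164). SCR1, the scaffold RNA of the particle that brings ribosomes to the endoplasmic reticulum, averaged 26054 ± 12257 CPM (SD) in the 3 libraries of 5 min and 161645 ± 76396 CPM in those of total RNA. Its log2 fold change of −2.63 (adjusted p = 0.0426) did not pass without the 5 min library of timecourse 1, 2 or 3 (0.111, 0.117 and 0.147) or the total RNA library of timecourse 1 (0.0959). RPR1, the RNA of RNase P, which trims tRNA 5′ ends, had a log2 change of −1.33 (adjusted p = 0.083), and NME1, the RNA of RNase MRP, −1.74 (adjusted p = 0.0946). Both passed with timecourse as a block (adjusted p = 0.00431 and 0.0406). NME1 also passed without the total RNA library of timecourse 2 (0.0334).

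In the fit without the timecourse block tRNA genes, unlike snoRNAs and snRNAs, held no feature that was called lower. With timecourse as a block 28 tRNA features were lower and 24 higher, where 12.1% and 5.51% of all features were. tRNAs are long-lived adaptors of translation, and in yeast some of their genes hold an intron that is cut out of the new transcript outside the spliceosome. Of 235 tRNA features tested, 8 were higher (3.40%, near the 3.26% of all features) and 0 lower (against 8.47% of all features). All 8 were features matched to genes with an annotated intron. The split by intron was made after these values were seen and is given as a description. Of 54 intron-bearing features 8 were higher, 15 had all 3 libraries of 5 min above all 3 of total RNA (over all features 20.3% did), and the median log2 fold change was 1.85, with quartiles of −0.16 and 2.84. Of 178 features with no intron 0 were called, 0 were without overlap in either direction and the median was −1.39, with quartiles of −2.64 and 0.19. Of the 178, 51 had a log2 fold change above 0, against 40 of the 54. Under the timecourse block, 21 of the intron-bearing features were higher and 0 lower, while 3 of those with no intron were higher and 27 lower.

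**Figure D2:**
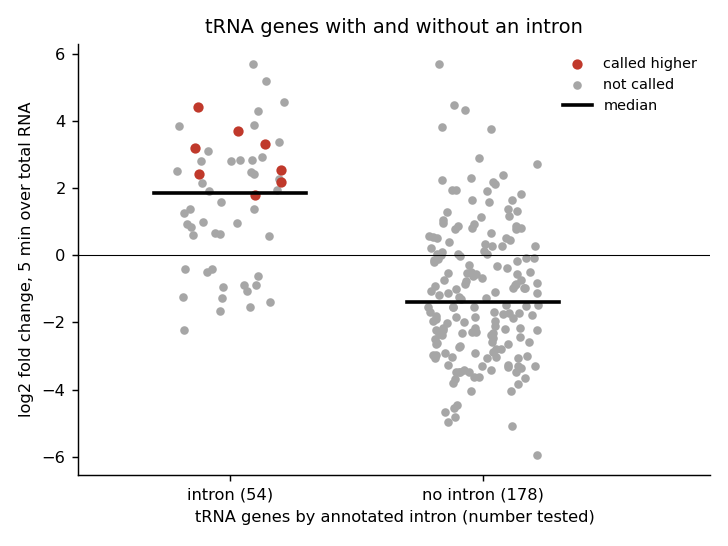
Log2 fold change of 5 min labelled over total RNA for each tRNA feature tested, with the median of each group as a bar. The intron-bearing features had a median of 1.85, and the 8 that passed the test are all in that group; those with no intron had a median of −1.39.

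tL(CAA)L, a leucine tRNA gene whose sequence is given above, had 223, 445 and 463 CPM at 5 min, against 12.8, 57.7 and 52.9 in total RNA. The label-free libraries, at 48.2 and 6.45 CPM, lay below every 5 min library. The log2 change was 3.18 ± 0.58 (SE, edgeR adjusted p = 0.00557). tL(CAA)D had 98.2, 201 and 284 CPM at 5 min, against 6.79, 34 and 15.9 in total RNA (log2 fold change 3.32, adjusted p = 0.00515). For both genes the 5 min level was higher in each timecourse, and the call held in all 6 fits that left out 1 library. With only the 6 libraries in the fit neither passed (edgeR adjusted p = 0.0627 for tL(CAA)L and 0.0588 for tL(CAA)D), and no tRNA feature did. At 1.5, 2.5 and 5 min tL(CAA)L averaged 84.8, 300.3 and 377 CPM, and in total RNA 41.1. The 6 others that passed were chosen after their values were seen. tP(UGG)L averaged 341 CPM at 5 min and 63.7 in total RNA, and tP(UGG)O1 455 and 78.3, with log2 fold changes of 2.42 and 2.53 (adjusted p = 0.0049 and 0.00899). tW(CCA)M was low, at 3.74, 9.07 and 2.75 CPM at 5 min, against 0, 0.312 and 0.175 in total RNA (log2 fold change 4.42, adjusted p = 0.00729). tP(UGG)N2, tL(CAA)A and tK(UUU)G2 had log2 fold changes of 3.70, 2.18 and 1.79 (adjusted p = 0.025, 0.0274 and 0.0281). Their calls were lost without a library of 5 min from timecourse 2 or 3 in each case (highest adjusted p = 0.0749, 0.0944 and 0.115). tP(UGG)N2 was also lost without the 5 min library of timecourse 1 (0.0592), and tL(CAA)A and tK(UUU)G2 without the total RNA library of timecourse 1 (0.0736 and 0.0704); tL(CAA)A was further lost without that of timecourse 2 (0.0537).

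The medians of families that hold an intron were not tested against each other, and their ranges overlapped. The 6 tryptophan features of tW(CCA) had a median log2 fold change of 3.01, the 5 of tK(UUU) 2.81 and the 10 of tF(GAA), for phenylalanine, 2.66. The 8 of tP(UGG) stood at 0.84, the 8 of tY(GUA), for tyrosine, at 0.90 and the 10 of tL(CAA) at 0.38. Among families with no intron, tG(GCC), for glycine, had a median of −3.40 over 13 features, and tV(AAC), for valine, stood at 1.62 over 12. Many of these features were near the floor. At 5 min those of tV(AAC) averaged 0.482 to 5.66 CPM, those of tG(GCC) 0.368 to 107 and those of tW(CCA) 1.68 to 433. Members of a family share most of their sequence, so they are not independent.

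Mitochondrial transcripts, made from the organelle's own genome by its own RNA polymerase, were lower where they passed. Of 45 features tested 8 were lower (17.8%, against 8.47% of all features) and 0 higher, with a median of −3.65. The median log2 ratio within timecourses 1, 2 and 3 was 0, −3.45 and −4.06, with 0.5 CPM added to each level. COB, cytochrome b (mitochondrial genome, 36540 to 43647), had 27.6, 17.4 and 44.2 CPM at 5 min, against 140.3, 143 and 836 in total RNA. No values overlapped (log2 fold change −3.65 ± 0.77, adjusted p = 0.0111). The intron reading frame BI2, which lies within COB, had the same counts in each library, as did BI3 and BI4, so these are a single measurement. Each of them is nevertheless counted among the 8 that were lower. The 8 and the 17.8% thus count the same reads more than once, and the class median of −3.65 is the value of these features. COX2 and COX3, subunits of cytochrome oxidase, had log2 fold changes of −2.23 and −2.70 (adjusted p = 0.00793 and 0.0146). COB was lost without the 5 min library of timecourse 1 or 2 (adjusted p = 0.0537 and 0.0558). Over the class, 0 features passed without the 5 min library of timecourse 1, 1 without that of timecourse 2, 6 without that of timecourse 3 and 37 with timecourse as a block. The share of mitochondrial counts outside rRNA ran from 0.0859% to 1.34% at 5 min and from 0.0615% to 6.15% in total RNA, lowest in timecourse 1 and highest in timecourse 3 in both groups. In timecourse 1 the share was thus higher at 5 min, while in timecourses 2 and 3 it was higher in total RNA.

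**Figure D3:**
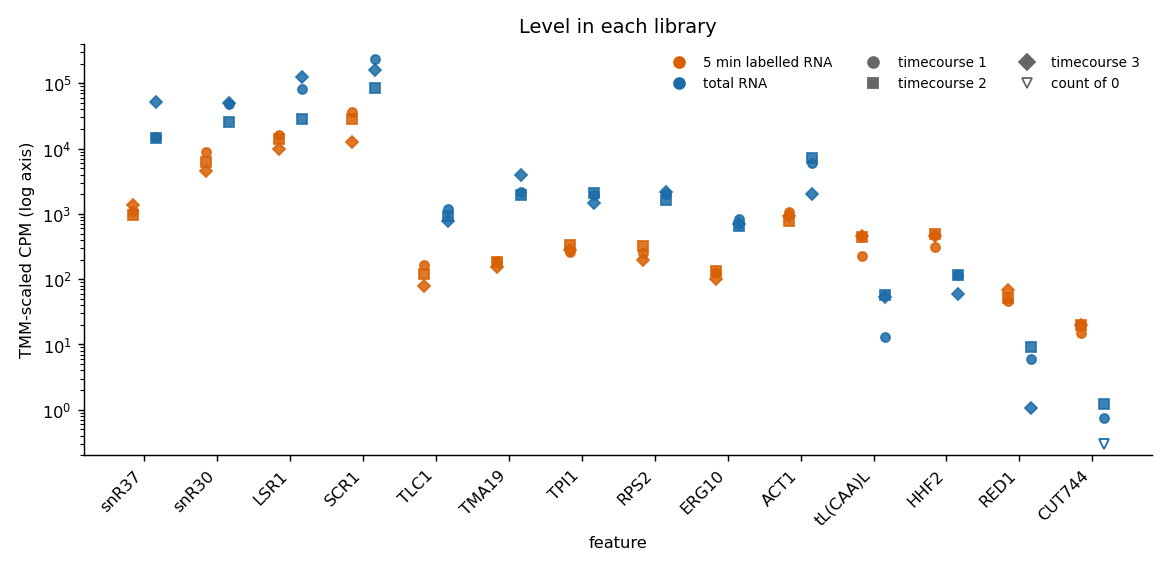
TMM-scaled CPM on a log axis of 14 features in each library, with 5 min labelled RNA to the left of total RNA and the marker shape giving the timecourse. The stable RNAs and abundant mRNAs lie lower at 5 min in each timecourse, and tL(CAA)L, HHF2, RED1 and CUT744 lie higher.

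Of the 708 protein-coding features that were lower, 97 were ribosomal protein genes. Cytoplasmic ribosomal protein genes fell in 97 of 137 members and rose in 0, where 8.47% of all features were lower, and their median log2 fold change was −1.73. The median within timecourses 1, 2 and 3 was −1.82, −1.60 and −1.64. RPS2, a small-subunit protein (YGL123W, chromosome VII, 277617 to 278381), had 253, 321 and 195 CPM at 5 min, against 2021, 1612 and 2167 in total RNA. RPS16A, also of the small subunit, had 68.7, 82.8 and 79.4 CPM at 5 min, against 451, 379.7 and 763. Both sets were well apart, and the fold changes were −2.91 ± 0.34 and −2.79 ± 0.32 on the log2 scale (SE, adjusted p = 0.000893 each). Scaled by library size alone the list had a median of 0.01, still below the 1.86 of all features, and 11 members were called higher and 4 lower. Leaving out 1 library at a time left 52, 69 and 59 lower without a 5 min library of timecourse 1, 2 and 3, and 48 members were lower in all 6 such fits. With only the 6 libraries in the fit 15 were lower.

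Not every ribosomal protein gene was called lower. The genes given next are fixed ones or come from the list of genes that regulate themselves by splicing. Other members also stood above 0, among them RPS27A, RPL36A and RPS30B. Their log2 fold changes were 0.44, 0.22 and 0.04 (edgeR adjusted p = 0.327, 0.792 and 0.97). RPS14A, 1 of the 2 genes for protein S14 (YCR031C), had 468, 459 and 401 CPM at 5 min, against 3852, 3261 and 947 in total RNA, and fell by 2.60 ± 0.49 (log2, SE, adjusted p = 0.00662). Its partner RPS14B (YJL191W), whose protein binds its own pre-mRNA and holds back splicing, had 1153, 615 and 964 CPM at 5 min, against 465, 549 and 657 in total RNA. The groups overlapped (log2 fold change 0.71 ± 0.36, adjusted p = 0.211). The mean of RPS14B was 3019 CPM at 1.5 min, 1435 at 2.5 min, 911 at 5 min and 557 in total RNA. RPS9A and RPS9B, a pair that regulates itself through splicing, also differed. RPS9B averaged 266 CPM at 5 min and 727 in total RNA (log2 fold change −1.45, adjusted p = 0.0198), and RPS9A 196 and 182 (0.11, adjusted p = 0.817). RPS9B was lost without the 5 min library of timecourse 1 or 3 (0.119 and 0.0853). RPL30, whose protein blocks splicing of its own transcript, averaged 311 CPM at 5 min and 723 in total RNA (log2 fold change −1.22, adjusted p = 0.0505). This fold change was close to the upper quartile of all ribosomal protein genes tested, −1.24. RPL30 passed with timecourse as a block (0.0293) and without the total RNA library of timecourse 3 (0.024). In the list of 9 genes that regulate themselves by splicing, 1 was lower (11.1%, near the 8.47% of all features) and 0 higher. Under the block 3 of them were lower.

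Genes listed under translation elongation fell in 9 of 11 members (81.8%, against 8.47% of all features) and rose in 0. Their median log2 fold change was −2.34. TMA19, the yeast form of the translationally controlled tumour protein (YKL056C, chromosome XI, 334412 to 334915), had 189.8, 181 and 156 CPM at 5 min, against 2187, 1917 and 3891 in total RNA. It fell by 3.93 ± 0.37 on the log2 scale (SE, adjusted p = 0.000783), and the fall held in the fit with only the 6 libraries (adjusted p = 0.0464). The antisense unit Unit229 had levels close to those of TMA19 (means of 166 CPM at 5 min and 2452 in total RNA). The source of these reads is therefore uncertain. TEF2 and TEF1, which encode the same elongation factor 1α, averaged 325 and 254 CPM at 5 min and 1649 and 1051 in total RNA; their reads cannot be fully separated. Their log2 fold changes were −2.34 and −2.05 (adjusted p = 0.00214 and 0.00302). EFT1, a gene of elongation factor 2, stood at −3.52 (adjusted p = 0.00284). TEF4 did not pass, with 112.6, 57.94 and 86.27 CPM at 5 min and 126.71, 107.01 and 61.784 in total RNA (log2 fold change −0.20, adjusted p = 0.776). By library size alone 2 members were higher and 2 lower, with a median of −0.54, below that of all features. Between 7 and 10 members were lower when 1 library was left out, and 7 were lower in every such fit.

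Glycolysis and fermentation enzymes, which carry most of the carbon flow of growing yeast, fell in 16 of 19 members and rose in 0. That is 84.2% lower, against 8.47% of all features, and the median log2 fold change was −2.47. TPI1, triose phosphate isomerase (YDR050C, chromosome IV, 555726 to 556472), had 265, 334 and 276 CPM at 5 min, against 1929, 2079 and 1479.9 in total RNA. PGI1, which converts glucose-6-phosphate to fructose-6-phosphate, had 380.5, 374 and 202 CPM at 5 min, against 3107, 2883 and 1523. Neither gene had overlapping groups, and their log2 fold changes were −2.65 ± 0.30 and −2.97 ± 0.42 (SE, adjusted p = 0.000893 and 0.00164). The hexokinase gene HXK1 was the member above 0. It had 103.2, 60.46 and 58.3 CPM at 5 min, against 63.354, 63.359 and 0.69813 in total RNA, with overlap (log2 fold change 0.81, adjusted p = 0.574). Without 5 min libraries of timecourse 1, 2 or 3 in turn 7, 8 and 7 members were lower, without the total RNA library of timecourse 1 11 were, and 6 were lower in all such fits. Under the block 18 were lower, and by library size alone 0 were called in either direction (median −0.78).

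In the list of nuclear respiratory chain and ATP synthase genes 10 of 34 were lower (29.4%, against 8.47% of all features) and 0 higher, with a median of −0.52. The direction turned with the scaling: by library size alone 19 were higher and 0 lower. COR1, a core subunit of complex III (YBL045C), had 42.7, 46.2 and 41.7 CPM at 5 min, against 181, 156 and 234 in total RNA, a log2 change of −2.13 ± 0.24 (SE, adjusted p = 0.000893). SDH3, a membrane subunit of succinate dehydrogenase, averaged 88.9 CPM at 5 min and 370.5 in total RNA (−2.06, adjusted p = 0.00229). The list's median by library size alone was 1.27, below the 1.86 of all features. When 1 library of 5 min was left out, 6, 6 and 7 members were lower, and without the total RNA library of timecourse 3 15 were. ACT1, actin (YFL039C), had 1081, 791 and 942 CPM at 5 min, against 6054, 7169.9 and 2010.3 in total RNA, and fell by 2.44 ± 0.47 (log2, SE, adjusted p = 0.00712).

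Ergosterol synthesis genes fell in 12 of 24 members (50.0%, against 8.47% of all features) and rose in 0, with a median of −1.23. ERG10, the acetoacetyl-CoA thiolase that opens the pathway (YPL028W, chromosome XVI, 498096 to 499292), had 124, 133 and 101 CPM at 5 min, against 821, 659.9 and 701 in total RNA. ERG1, squalene epoxidase, had 183, 197 and 163 CPM at 5 min, against 1146, 1074 and 918. The replicates of both genes were tight, and the log2 fold changes were −2.61 ± 0.27 and −2.53 ± 0.28 (SE, adjusted p = 0.000847 each), kept with only the 6 libraries in the fit (0.0464 each). The count was 4, 8 and 7 without the 5 min library of timecourse 1, 2 and 3, and 19 without the total RNA library of timecourse 3. By library size alone 5 members were higher and 1 lower, with a median of 0.46.

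Cell wall and daughter separation genes were lower in 10 of 19 members (52.6%, against 8.47% of all features), with 1 higher (5.26%, against 3.26%). CTS1, the chitinase that parts mother and daughter (YLR286C), had 532, 648 and 485 CPM at 5 min, against 4143, 4489 and 1472 in total RNA, and GAS1, a glucan remodelling enzyme, 445, 470.3 and 335, against 2748, 2784 and 1155. Both were lower in every timecourse, by log2 fold changes of −2.60 ± 0.43 and −2.42 ± 0.38 (SE, adjusted p = 0.00354 and 0.00291). DSE1, a daughter-cell protein, was the member that was higher, at 148.9, 165.8 and 176.6 CPM at 5 min, against 85.98, 102.71 and 67.893 in total RNA (log2 fold change 0.94, adjusted p = 0.0409). Of the list, 5, 4 and 4 members were lower without the 5 min library of timecourse 1, 2 and 3. Without a total RNA library they were 6, 7 and 14. DSE1 passed in 2 of these 6 fits. By library size alone 4 members were higher and 0 lower, with a median of 0.13, against −1.54 with TMM.

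Genes of pyrimidine synthesis and uracil uptake were lower in 2 and higher in 1 of 16. These shares, 12.5% and 6.25%, are near the 8.47% and 3.26% of all features for so short a list, and by library size alone 7 were higher and 0 lower. URA2, which catalyses the first steps of the pathway (YJL130C), had 837, 1071 and 747 CPM at 5 min, against 6592, 6742 and 2373 in total RNA (log2 fold change −2.56 ± 0.48, SE, adjusted p = 0.00602). URA5 and URA10 encode the 2 forms of orotate phosphoribosyltransferase, and moved apart. URA5 had 145, 131 and 181 CPM at 5 min, against 416, 417 and 948 in total RNA, while URA10 had 65, 46.1 and 84.6, against 20.4, 19.9 and 16.1. Neither gene's groups overlapped, and the log2 fold changes were −1.96 ± 0.40 (adjusted p = 0.00919) for URA5 and 1.80 ± 0.32 (adjusted p = 0.00506) for URA10. Both calls, and that of URA2, held when any 1 of the 6 libraries was left out. With only the 6 libraries in the fit none of them passed (edgeR adjusted p = 0.0801 for URA5, 0.0871 for URA10 and 0.0646 for URA2). Under the block 5 members were lower. Genes attenuated by Nrd1, which ends short transcripts early, or regulated by start site choice were lower in 5 of 12 and higher in 0. That is 41.7% lower, against 8.47% of all features, and URA2 is 1 of the 5. GLT1, glutamate synthase, averaged 213 CPM at 5 min and 937 in total RNA (−2.13, adjusted p = 0.00459), and NRD1 itself 109.7 and 72.9 (0.59, adjusted p = 0.507). Without the 5 min library of timecourse 1 or 3, 2 and 3 members of the 12 were lower, and without the total RNA library of timecourse 3 8 were.

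Of 10 genes of histones, which package DNA, 2 were higher and 1 lower, with a median of 0.27. These shares, 20.0% and 10.0% of a short list, stand against 3.26% and 8.47% of all features. By library size alone 7 were higher and 0 lower. HHF2, which encodes histone H4 (YNL030W, chromosome XIV, 576727 to 577038), had 315, 484 and 458 CPM at 5 min, against 114, 115 and 60.2 in total RNA. HHF1, the other H4 gene (YBR009C), had 178, 232 and 227, against 62.6, 110.2 and 74.4. In both, every 5 min library lay above every total RNA library, and the log2 fold changes were 2.12 ± 0.40 and 1.36 ± 0.33 (SE, adjusted p = 0.00623 and 0.0203). HHF2 averaged 167 CPM at 1.5 min, 276 at 2.5 min and 419 at 5 min, with 96.5 in total RNA and 126 and 104 without label. The feature of HTB2, an H2B gene, was lower, with 262.4, 233.6 and 362.2 CPM at 5 min, against 721.02, 584.07 and 580.32 (−1.14, adjusted p = 0.0264). ECM15 had the same counts in all 14 libraries, so these reads cannot be assigned to HTB2. HHF1 was lost without the 5 min library of timecourse 2 or 3 (0.0685 and 0.0696) or the total RNA library of timecourse 1 (0.0587), and HTB2 passed in 3 of the 6 fits. HHF2 did not pass with only the 6 libraries in the fit (edgeR adjusted p = 0.0568). The histone mRNAs of budding yeast are made in S phase and short-lived.

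Lists of regulatory and assembly genes lay near or above the bulk and held few calls. Mitochondrial ribosomal proteins had 1 higher and 1 lower of 65 (median 0.44), ribosome biogenesis 1 higher and 2 lower of 70 (median 0.21), transcription factors 1 higher and 1 lower of 40 (median 0.40), and cyclins and G1/S regulators 0 of 23 in either direction (median 0.40). The shares of these lists were 0 to 2.50% higher and 0 to 2.86% lower, against 3.26% and 8.47% of all features. Scaled by library size alone these lists had 53, 50, 32 and 18 higher and 0 lower. By DESeq2's Wald test 3 of those 23 were higher and 1 lower. HAP4, an activator of respiratory genes (YKL109W), had 40.9, 51.2 and 86.5 CPM at 5 min, against 15.8, 18.7 and 19.9 in total RNA (log2 fold change 1.71 ± 0.36, SE, adjusted p = 0.011). GCN4, the activator of amino acid synthesis, was on the other side, with 109, 129 and 138 CPM at 5 min, against 284, 386 and 338 (−1.42 ± 0.26, adjusted p = 0.00572). The call of HAP4 was lost without the 5 min library of timecourse 3 (0.0572), while that of GCN4 held when any 1 library was left out. With only the 6 libraries in the fit neither passed (edgeR adjusted p = 0.136 for HAP4 and 0.0699 for GCN4). The label-free libraries held HAP4 at 19.3 and 62.4 CPM, the second above the 5 min libraries of timecourses 1 and 2. Among ribosome biogenesis genes UTP6 was higher (18.5 against 3.44 CPM, adjusted p = 0.0315) and RRP40, an exosome subunit, lower (21.4 against 46.6, adjusted p = 0.0215). UTP6 had 4.47 and 18.4 CPM in the label-free libraries, the second near its mean of 18.5 at 5 min. Of the mitochondrial ribosome, MRPS35 was higher (62.4 against 29.8 CPM, adjusted p = 0.0363) and MRP4 lower (16.5 against 68.2, adjusted p = 0.0213). Each of these 4 was lost without the 5 min library of timecourse 1, 2 or 3 (adjusted p between 0.0537 and 0.125).

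Cell cycle regulators of the G1 phase were not resolved. PCL1, a G1 cyclin that works with the kinase Pho85, had 45.8, 77.9 and 57.4 CPM at 5 min, against 9.8, 22.6 and 28.8 in total RNA. The groups did not overlap, but the adjusted p was 0.0569, and 0.00446 with timecourse as a block. It also passed without the total RNA library of timecourse 3 (0.0243). YOX1, a repressor, had a log2 change of −1.59 (adjusted p = 0.0658), and passed without the total RNA library of timecourse 1 or 2 (0.0168 and 0.048). CLN2 had 29.9, 29.5 and 42 CPM at 5 min, against 46, 58.7 and 3.14 in total RNA (log2 fold change −0.09, adjusted p = 0.94), where the low value was that of timecourse 3.

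Heat shock chaperones had 2 lower and 0 higher of 20, with a median of 0.07. The 10.0% lower is near the 8.47% of all features, and by library size alone 14 were higher and 0 lower. The 2 were SSB1 and SSB2, Hsp70 proteins that sit on the ribosome and bind new chains. SSB1 had 417, 333 and 202 CPM at 5 min, against 4259.8, 3156 and 951 in total RNA, and SSB2 469, 548 and 245, against 4443, 4727 and 976. Both were lower in each timecourse, with log2 fold changes of −3.14 ± 0.58 and −3.01 ± 0.63 (SE, adjusted p = 0.00596 and 0.0108). SSB2 was lost without the 5 min library of timecourse 1 or 3 (0.0567 and 0.0581). Under the block 3 members were higher and 3 lower. HAC1, the activator of the unfolded protein response, had 650.4, 606 and 302 CPM at 5 min, against 2131, 2231 and 1840.3 in total RNA (−1.99 ± 0.40, adjusted p = 0.00867). MFA2, the a-factor precursor, averaged 77.1 CPM at 5 min and 241 in total RNA (−1.64, adjusted p = 0.00796), a call lost without the 5 min library of timecourse 1 (0.0666). STE2 had −1.23 (adjusted p = 0.0133) and was lost without that of timecourse 1 or 2 (0.0783 and 0.0592). Of the 8 mating type genes these were the 2 that passed (25.0% lower, against 8.47% of all features).

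**Figure D4:**
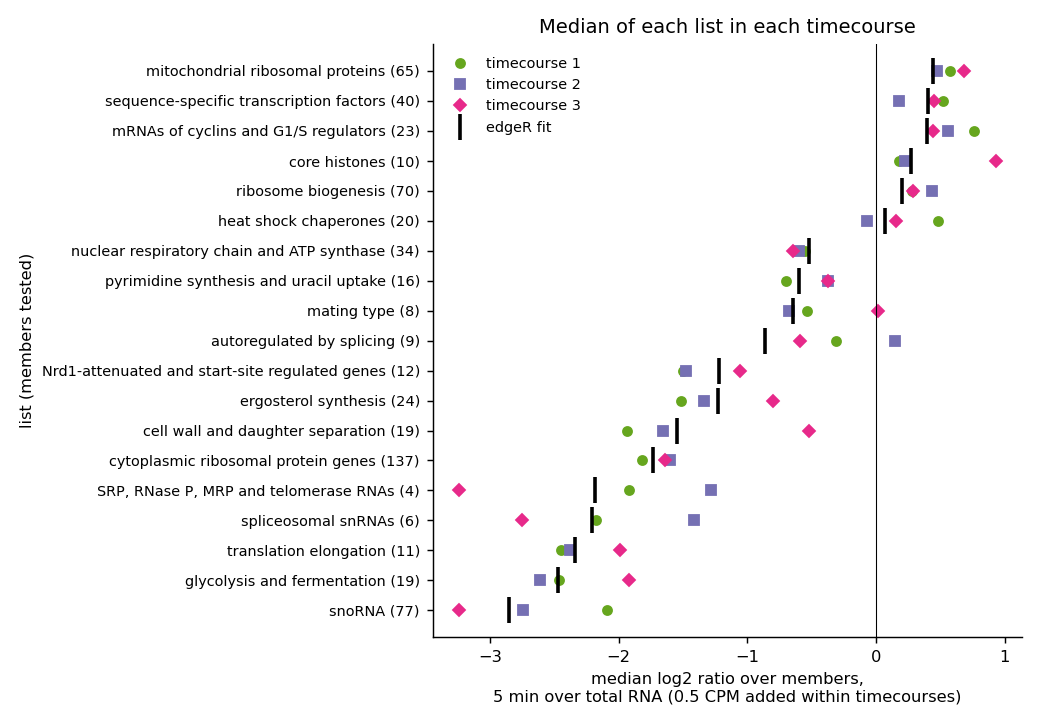
Median log2 ratio of 5 min labelled over total RNA over the members of each list, within each timecourse (coloured markers) and in the edgeR fit (bars). Glycolysis, elongation and ribosomal protein genes lay below 0 in every timecourse (by library size alone the fit's median of the ribosomal protein genes was 0.01), while mitochondrial ribosomal proteins lay above 0 in each.

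Transcripts outside the annotated genes gave 207 of the 375 higher features, and made up 4302 of the 11513 features tested. Of 1841 CUTs tested 109 were higher and 65 lower (median 0.72), of 819 SUTs 40 and 28 (median 0.43), and of 1642 XUTs 58 and 68 (median 0.43). The shares higher were 5.92%, 4.88% and 3.53%, against 3.26% of all features, so that of XUTs was near the background. The shares lower were 3.53%, 3.42% and 4.14%, against 8.47% of all features. CUT744 had 14.8, 19.9 and 20.1 CPM at 5 min, against 0.754, 1.25 and 0 in total RNA, a log2 change of 4.58 ± 0.76 (SE, adjusted p = 0.00347). SUT580 had 7.48, 8.54 and 18.6 CPM at 5 min, against 0, 1.34 and 0, and XUT_13F-3 55.6, 24.5 and 26.1, against 3.02, 4.4 and 0.349. Their groups did not overlap, and the log2 fold changes were 4.09 and 3.73 (adjusted p = 0.0192 and 0.0184). XUT_16F-233 stood at 3.71 (adjusted p = 0.0205). SUT285, at 3.94 (adjusted p = 0.0326), had 52, 22 and 16.7 CPM at 5 min, near the levels of XUT_13F-3 in each library, so both may hold the same reads. CUT744 held when any 1 library was left out, but not with only the 6 libraries in the fit (edgeR adjusted p = 0.0882). SUT580 was lost without the 5 min library of timecourse 3 (0.0746), XUT_13F-3 without that of 1 (0.0685), XUT_16F-233 without that of 1 or 3 (0.0661 and 0.0748), and SUT285 without any of the 3 (0.115, 0.063 and 0.06) or the total RNA library of timecourse 1 (0.0725).

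Other unannotated transcripts were lower. CUT166 had 0.113, 0.178 and 0.472 CPM at 5 min, against 3.02, 10.1 and 46.6 in total RNA, a log2 change of −6.19 ± 1.07 (SE, adjusted p = 0.00418), with the total RNA value of timecourse 3 far above the others. SUT742 had 24, 29.7 and 42.3 CPM at 5 min, against 208, 454 and 217, and fell by 3.19 ± 0.38 (adjusted p = 0.000893). SUT763 and XUT_15R-29 had nearly the same level in each library, 5.44, 18.2 and 12.4 CPM for SUT763 and 6.23, 18.6 and 13 for XUT_15R-29 at 5 min, so they may hold the same reads. Their log2 fold changes were −3.89 and −3.82 (adjusted p = 0.00706 and 0.00662). CUT_CMR191WTa3 and XUT_11F-205 stood at −3.40 and −4.29 (adjusted p = 0.00869 and 0.0307). XUT_11F-205 had 9.8, 6.61 and 70.7 CPM in total RNA, and was lost without any 5 min library (0.122, 0.0758 and 0.113) or without the total RNA library of timecourse 3 (log2 fold change −2.37, adjusted p = 0.0778). CUT_CMR191WTa3 was lost without the 5 min library of timecourse 1 or 3 (0.0528 and 0.0519).

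The balance of unannotated transcripts depended on the libraries. Together, 207 were higher and 161 lower. Without the 5 min library of timecourse 1, 2 or 3 the higher count was 47, 77 and 43 and the lower 64, 85 and 70. Without the total RNA library of timecourse 1, 2 or 3 there were 146, 796 and 539 higher and 194, 266 and 363 lower. So higher features outnumbered lower ones in the full fit and without the total RNA library of timecourse 2 or 3, and were fewer in the other 4 fits. In these 4, in the order given above, all features of the full fit had 96, 127, 82 and 263 higher and 463, 538, 488 and 1002 lower. CUTs had 26, 41, 27 and 78 higher and 25, 36, 31 and 76 lower. SUTs had 7, 14, 5 and 27 higher and 12, 13, 10 and 30 lower. XUTs had 14, 22, 11 and 41 higher and 27, 36, 29 and 88 lower. With timecourse as a block 286 were higher and 233 lower, with only the 6 libraries 1 was higher and 23 lower, and by library size alone 2223 were higher and 10 lower.

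Of 402 antisense units 10 were higher (2.49%) and 47 lower (11.7%), near the 3.26% and 8.47% of all features, with a median of −0.27. Scaled by library size alone 206 were higher and 3 lower, with a median of 1.51. Unit10 had 83.2, 84 and 52 CPM at 5 min, against 9.05, 27.1 and 12.2 in total RNA (log2 fold change 2.14 ± 0.43, SE, adjusted p = 0.00867), and Unit42 averaged 30.7 and 7.65 (2.06, adjusted p = 0.0355). Unit42 was lost without any 5 min library (0.122, 0.0685 and 0.0868). On the lower side, Unit229 had 184, 175 and 138 CPM at 5 min, against 2134, 1864 and 3359.6 in total RNA, close to the level of TMA19 in each library. Unit381 had 0.453, 0.605 and 0.826, against 1.51, 0.935 and 52.4, close to PRM3, a gene for nuclear fusion in mating, at 0.68, 0.641 and 0.826, against 1.51, 0.967 and 52.4. The log2 fold changes of Unit381 and PRM3, −4.84 and −4.68 (adjusted p = 0.0413 and 0.0487), rested on the total RNA library of timecourse 3, without which they were −0.80 and −0.66 (adjusted p = 0.525 and 0.622). They were also lost without any 5 min library and with timecourse as a block (0.0854 and 0.105). How the counting treated strand is stated in no source used here, so reads of a gene and of a transcript on its other strand cannot be told apart. Of 11494 features with at least 100 counts over the 14 libraries, 151 had the same counts as another feature in all of them, and 62 groups of these held names on both strands; 36 of the features called belong to such groups.

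The protein-coding genes with the highest fold changes were small or overlapped. RED1, a meiotic chromosome protein (YLR263W, chromosome XII, 670340 to 672823), had 46.7, 51.2 and 69.2 CPM at 5 min, against 6.03, 9.04 and 1.05 in total RNA, a log2 change of 3.35 ± 0.58 (SE, adjusted p = 0.00418). The label-free libraries held RED1 at 5.92 and 39.2 CPM, below every library of 5 min. CUT_CLR263WTa3-B, named for the same locus, had 19.5, 26.2 and 32.9 CPM at 5 min, against 0.754, 2.71 and 0 (4.21, adjusted p = 0.0069). YOR008C-A, an uncharacterised gene, averaged 15.9 CPM at 5 min and 0.8 in total RNA (3.79, adjusted p = 0.0217), and was lost without the 5 min library of timecourse 1 or 3 (0.0825 and 0.0582). HRD1, a ubiquitin ligase of the endoplasmic reticulum named after its values were seen, had the highest 5 min level of the protein-coding genes that were higher. It had 432, 1071 and 1145 CPM at 5 min, against 85.2, 160.2 and 251 in total RNA (2.41, adjusted p = 0.0153; lost without the 5 min library of timecourse 2 or 3, 0.0526 and 0.0583). YOL013W-A, whose systematic name places it on the other strand of the same locus, had 389, 1039 and 1109 CPM at 5 min, against 57.3, 138 and 181, so the source of these reads is uncertain.

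Across protein-coding genes the fold change went with the level. Genes were ranked by mean CPM per kb over the 6 libraries and cut into 10 groups of equal size. In the highest group 361 of 639 genes were lower and 7 higher (median log2 fold change −1.68). In the group below it 157 of 639 were lower and 14 higher. In the lowest group 3 of 640 were lower and 5 higher, and the median was 0.70. Over 6391 genes the log2 mean level and the log2 fold change had r = −0.48 (rho = −0.48). The level and the fold change share the same 6 libraries, so they are not independent. A high value in total RNA raises the level and lowers the fold change, and a high value at 5 min raises both. Calls in the groups of low level are also limited by their low counts. With log2 length r was −0.11 over the same genes, and with the share of uridine in the gene −0.13 over 5832 genes.

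Splicing gave another readout of the same RNA. For each of 187 introns the authors deposited a ratio read here as the spliced fraction, in each 5 min library and as a single steady-state value, which has no replicates, so that no test was made. Over all introns the median at 5 min was 0.735, 0.824 and 0.741 in timecourses 1, 2 and 3, against 0.945 at the steady state. Of the 187 introns 158 were below their steady-state value in all 3 libraries and 3 above. The 86 introns of ribosomal protein genes had medians of 0.920, 0.938 and 0.883 at 5 min, against 0.982, with 81 below in all 3 libraries. The 101 others had 0.463, 0.637 and 0.490, against 0.869, with 77 below. As a description, ribosomal protein genes were closer to their steady state than the rest, and their introns were longer, at a median of 403 bases against 97.

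Some genes were far from the steady state after 5 min. RPS14B had spliced fractions of 0.191, 0 and 0 at 5 min, against 0.840, while its partner RPS14A had 0.970, 0.985 and 0.942, against 0.998. RPL30 had 0.211, 0.474 and 0.002, against 0.907, with the value of timecourse 3 far below the others. ACT1 had 0.720, 0.785 and 0.584, against 0.993. RPS9A, at 0.523, 0.747 and 0.172, against 0.793, lay further below than RPS9B, at 0.810, 0.901 and 0.773, against 0.948. Outside these, the largest gap was that of UBC9, the SUMO-conjugating enzyme, with 0.319, 0.140 and 0.013 at 5 min, against 0.958, read from 66, 293 and 253 reads and chosen after its values were seen. The 3 introns above their steady state were those of BOS1, CIN2 and SFT1. BOS1, a SNARE protein of transport vesicles, had 0.516, 0.846 and 0.665 at 5 min, against 0.002, from 57, 264 and 298 reads and 530 at the steady state. With the mean of the 3 libraries under 0.5 stood 51 introns, against 15 at the steady state.

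**Figure D5:**
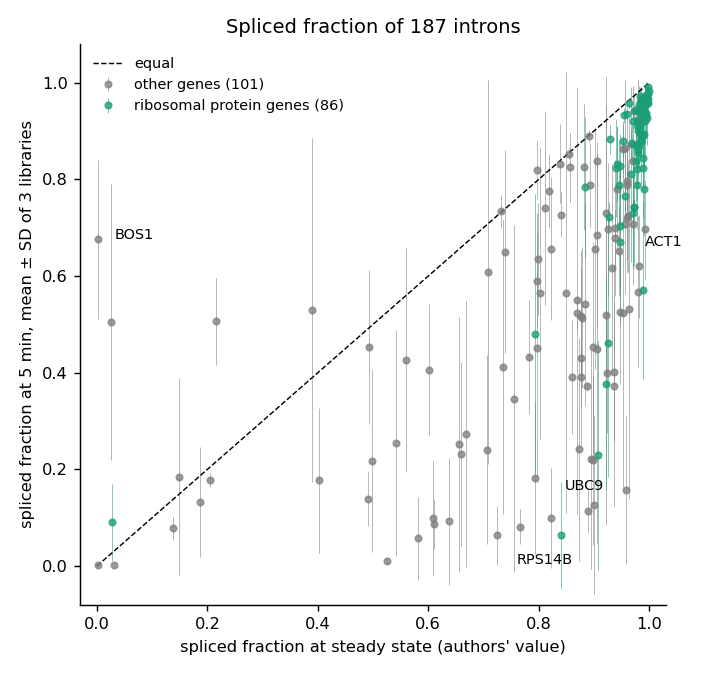
Spliced fraction at 5 min (mean ± SD of 3 libraries) against the authors' steady-state value for 187 introns, with ribosomal protein genes apart from other genes and the dashed line at equal values. Of the 187 introns 158 lie below the line in all 3 libraries.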

How the data were processed

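The authors deposited whole-number read counts for each feature, with no normalisation per the file headers, beside RPKM values that were deposited by the authors and used only to recover feature lengths. A spliced fraction per intron, with the reads behind it, was also deposited by the authors. The submitters' processing notes name STAR 2.4.2a and R64. Not given in the sources used here were the counter, its strand setting and whether reads sharing random barcode bases were collapsed. After 100 repeated rows were removed, 12449 features remained. Of 6688 protein-coding identifiers 6005 matched RefSeq R64 locus tags.

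edgeR 4.0.16 (R 4.3.3) fitted 12 libraries, 3 each of 1.5, 2.5 and 5 min and total RNA, with filterByExpr (minimum count 10), TMM and a quasi-likelihood F test adjusted over all features, at 0.05; SE was derived from the fold change and its F value. DESeq2 1.42.0 was an alternative. The edgeR step was tested on simulated data. Timecourse numbers come from the titles; deviations from group means correlated at 0.55, 0.30 and 0.35 within timecourses 1, 2 and 3, so they pair the libraries. Nothing says the libraries of a group came from separate cultures beyond their timecourse, so p-values measure the spread between these samples.

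Named features were, per class, the 2 highest and 2 lowest fold changes among those called with no overlap and at least 5 CPM; per list, the 2 lowest adjusted p; a set named whatever its values; and paralogs. Members and lists were chosen with earlier results of these data known. The lists name genes from general knowledge. tRNA features were matched to RefSeq genes by amino acid, chromosome letter and length. The label-free libraries entered no test; the source label of 1 reads as depleted total RNA, and its title set its group. RPKM columns of these 2 libraries were not used.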

Additional observations from a re-analysis of the deposited data

How the results depend on the processing

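The count of 1350 features (375 higher and 975 lower) was 1305 with no filter on low counts, 1408 with a minimum count of 30, 1409 with RLE size factors and 1282 with TMM on protein-coding features. The largest move came with the scaling, where library size only gave 6111 (6046 and 65). DESeq2's Wald test gave 2741 (1253 and 1488), the 6 libraries alone 175 (1 and 174), the timecourse block 2022 (634 and 1388) and the block with the 6 libraries alone 733 (43 and 690). With fewer samples in the fit, leaving out 1 library or 1 whole timecourse gave from 0 to 2977 features, 0 to 1455 higher and 0 to 1705 lower. It was 0 without timecourse 1 and without timecourse 2, with 1848 and 2614 features at an unadjusted p under 0.05, and 2190 (760 and 1430) without timecourse 3. The timecourse block changed no call of a named feature beyond those given with the results and that of MFA1, which passed under it (adjusted p = 0.036). Without timecourse 1 or 2 all 78 named features that had passed were lost, with no change of sign. With library size only, the log2 fold changes of RRP40 (0.67), GCN4 (0.33), RPS9B (0.25), MFA2 (0.053) and STE2 (0.58) turned above 0 and did not pass, while the median of all features was 1.86. The antisense share, −0.0979 percentage points at 5 min relative to total RNA, ranged from −1.21 to 0.813 when 1 timecourse was left out. The other shares and the spliced fractions moved by less than the spread between libraries under each alternative, with the fewest reads behind an intron at 37, so the minimum of 20 removed none. Zeros in total RNA limit the low features. The library of timecourse 1 had 3618310 counts and 9.52% of protein-coding features at 0. That of timecourse 3 had more counts, 21361270, and also more features at 0, 12.9%.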

Other observations

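FUI1, LEU2 and URA3 were chosen after their values were seen, since the medium lacked uracil and leucine. FUI1, the uridine permease, had 2257, 3561 and 2485 CPM at 5 min, against 4728, 4702 and 3305 in total RNA (log2 fold change −0.62, edgeR adjusted p = 0.306). LEU2, a gene of leucine synthesis that the genotype lists as leu2-3, 112, had 2711, 4860.3 and 2545 CPM at 5 min, against 14383, 20429 and 5399 in total RNA. Its log2 fold change of −1.99 (adjusted p = 0.0445) held in 1 of the 6 fits that left out 1 library. URA3, another gene of uracil synthesis, had 58.7, 67.9 and 39.3 CPM at 5 min, against 71.7, 46.1 and 31.2, with overlap.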
